A study of Homo sapiens with 6 samples.

Results

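Antisense RNA genes with a name of their own were followed in Huh7, a long-established line of human hepatocellular carcinoma cells, together with the sense genes after which they are named. The set holds each gene of the expression table whose symbol ends in -AS and a number, other than VCAN-AS1 and OIP5-AS1, and whose value was at least 1 in at least 3 of the 6 libraries. This gave 144 genes of 423 with such a symbol and of 23344 in the whole table. The 144 carry 143 symbols, since DHRS4-AS1 names 2 rows with different Ensembl IDs. The other 279 stayed below the minimum. Nearest to it, DLGAP1-AS2 and SRRM2-AS1 had third-highest values of 1.00 and 1.02 and were kept, while STX18-AS1 and USP2-AS1 had 0.98 and 0.97 and were not.

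Total RNA was sequenced from 2 groups with 3 libraries each. The sh2 group is Huh7 transfected with lentivirus for knockdown of VersicanV1, an isoform of the extracellular matrix proteoglycan versican. Its libraries all carry the label sh2, and the labels do not say how many hairpins were used. The shNC group is Huh7 transfected with control lentivirus. Both viruses were made in 293T cells and both groups share the line, medium and polybrene. The labels do not say if replicates are separate cultures, so p-values here measure library-to-library spread alone, and that spread may be technical.

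An antisense RNA is transcribed from the DNA strand opposite to that of its sense gene. Many start close to the sense gene's own start and run away from it, so that a shared promoter region serves both, while others run back through the sense gene and are complementary to its transcript. Some are known to act on the expression of their neighbour, and for many no role is established. Strand matters for their measurement: the TruSeq RNA kit named in the labels does not keep strand, and no counting by strand is stated. Reads from stretches where the exons of both genes overlap therefore cannot be told apart, in any pair described here.

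VCAN, the targeted gene, had 1.90, 1.74 and 1.64 FPKM in sh2 replicates 1, 2 and 3, against 4.79, 6.24 and 8.10 FPKM in shNC replicates 1, 2 and 3 (log2 fold change -1.39, SE 0.19, limma adjusted p = 0.0103). All 9 hepatocyte and liver cancer line markers were present, with a summed level of 8458 to 10705 FPKM in sh2 and 7118 to 8789 FPKM in shNC libraries. Of these, FGB (log2 fold change 0.70, limma adjusted p = 0.0188) and APOA1 (1.05, limma adjusted p = 0.0325) were called higher in sh2. TTR was called lower in sh2 (-1.19, limma adjusted p = 0.00770). The 10 leukocyte markers summed to 108 to 204 FPKM in sh2 and 75.6 to 92.0 FPKM in shNC libraries, mostly CD14 and LYZ. LYZ was itself called, with a mean of 50.2 FPKM in sh2 and 22.6 FPKM in shNC libraries (log2 fold change 1.08, limma adjusted p = 0.0277). S100A9 had 30.6 FPKM in sh2 replicate 2, 4.13 and 1.92 FPKM in sh2 replicates 1 and 3, and 0.57 to 1.65 FPKM in shNC libraries. S100A8, at 17.9 FPKM in sh2 replicate 2, was listed at 0 in the other 5 libraries, and NKG7, at 5.54 FPKM there, was at most 0.10 elsewhere. The part of these markers in the results was not tested. The 5 fibroblast markers summed to 149 to 174 FPKM in sh2 and 164 to 184 FPKM in shNC libraries, almost all of it LUM. Red cell markers, of which 1 of 3 had a row, reached 1.90 FPKM in sh2 and 0.95 FPKM in shNC libraries, and endothelial markers, 2 of 4 with a row, reached 0.17 FPKM in sh2 and 0.02 FPKM in shNC libraries. The 13 mitochondrially encoded genes took 23.8% to 31.2% of the summed values in sh2 and 16.0% to 19.2% in shNC libraries, and their part in the results below was not tested, apart from the rescaling without these genes given in the closing section.

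Of the 144 antisense RNA genes, 3 rose and 5 fell in sh2 libraries. The genes that rose were IL10RB-AS1, MRPL23-AS1 and PAPPA-AS1, and those that fell were ST3GAL6-AS1, PXN-AS1, ASB16-AS1, ADORA2A-AS1 and MAGI2-AS3. "Rose" and "fell" mean an adjusted p below 0.05 by limma on log2(FPKM + 1), adjusted by the Benjamini-Hochberg method across the 13696 genes that were tested, and log2 fold changes on that scale understate the change of low genes. The 8 calls are 5.56% of the set, against 8.08% of all genes tested, so the share is no larger than the background. Separately by direction, 4.15% of all genes tested rose (568) and 3.94% fell (539). This balance depended on the scaling: after rescaling without mitochondrially encoded genes 673 of all genes rose and 221 fell, and 3 antisense genes rose and 3 fell. After quantile normalization 562 of all genes rose and 432 fell, and 1 antisense gene rose and 5 fell. The libraries of both groups did not overlap for 36 members (17 higher and 19 lower in sh2), which is 25.0% of the set, against 33.1% of all genes tested.

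The antisense RNA genes were low in expression. Their median level over the 6 libraries was 2.50 FPKM, against 10.5 FPKM for all genes tested. Among the 4086 genes tested whose mean lay between the members' lower and upper quartile of level (1.51 and 6.39 FPKM), 6.31% were called, and 28.6% had groups that did not overlap. Both shares lie closer to those of the antisense set. By direction, 182 of these 4086 genes rose and 76 fell, while 3 antisense genes rose and 5 fell. The median log2 fold change was 0.04 for the 144 antisense RNA genes and -0.03 for all genes tested, with 79 members above 0 and 65 below. For the 4086 genes of like level the median was 0.02, close to that of the members, with 2161 above 0 and 1925 below. Among the 144, calls fell to 0 without shNC replicate 2 and to 1 without shNC replicate 1, shNC replicate 3 or sh2 replicate 3. They fell to 2 without sh2 replicate 2 and numbered 17 without sh2 replicate 1. ST3GAL6-AS1 was among the calls left in each of the 4 cases of 1 or 2 calls. The whole table moved in the same way. Of all 13696 genes tested, 54 were called without shNC replicate 2, 149 without shNC replicate 1 and 222 without shNC replicate 3. The numbers were 137 without sh2 replicate 2, 200 without sh2 replicate 3 and 3342 without sh2 replicate 1, against 1107 with all libraries.

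**Figure D1:**
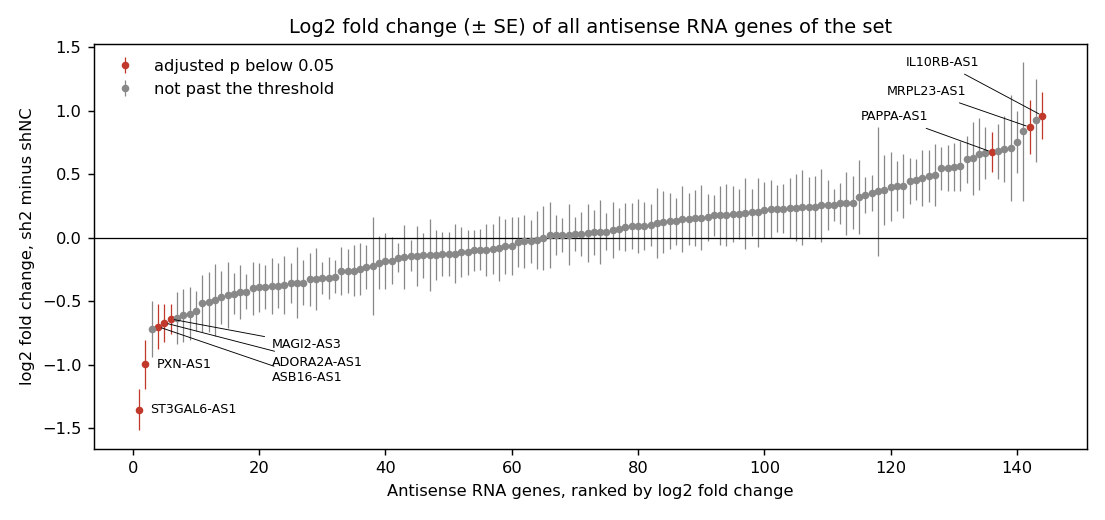
Log2 fold change, sh2 minus shNC, of each of the 144 antisense RNA genes in rank order. The vertical axis is on the log2(FPKM + 1) scale, bars are the standard error, and red marks the 8 genes with an adjusted p below 0.05. Values run from -1.35 (ST3GAL6-AS1) to 0.96 (IL10RB-AS1).

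A row for the sense gene was found by symbol for 136 of the 144 members, for 132 different sense genes. No sense row was used for the other 8, among them C17orf76-AS1 and CD27-AS1, and HOXA-AS2 and HOXC-AS1, whose names point to a gene cluster. Of the sense genes, 114 were tested and 18 were under the minimum. In the 117 pairs with a tested sense gene, the antisense RNA had a median of 19.8% of the level of its sense gene, and it was the higher of the pair in 19. FPKM values are per length, so levels of different genes can be set side by side, except where overlapping exons share reads. Of the 8 pairs in which at least 50% of the antisense exonic bases lie within sense exons, the antisense gene was the higher in 5. In the plot of levels most members lie below the line of equal levels.

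**Figure D2:**
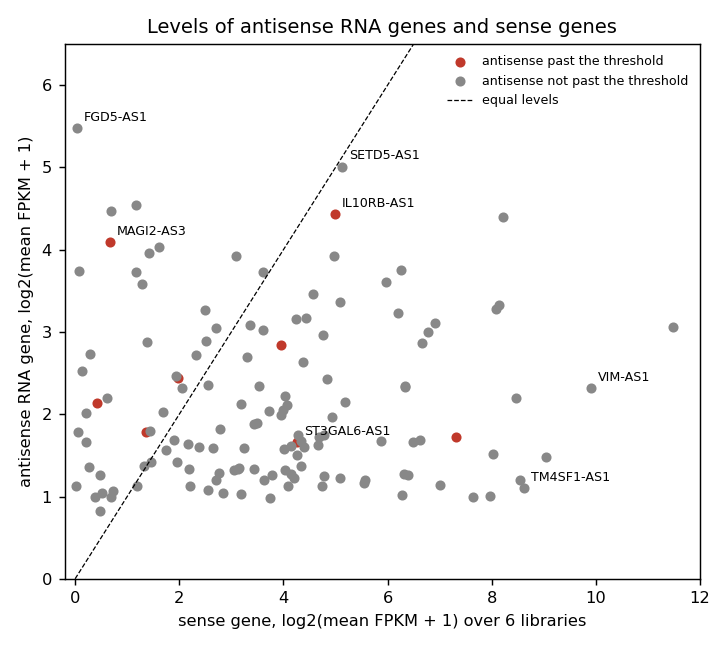
Mean level of each antisense RNA gene (vertical) against that of its named sense gene (horizontal), both as log2(mean FPKM + 1) over the 6 libraries, for the 136 pairs with a sense row. Red marks antisense genes past the threshold and the dashed line marks equal levels. FGD5-AS1 and MAGI2-AS3 lie far above it, VIM-AS1 and TM4SF1-AS1 far below.

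ST3GAL6-AS1 (ENSG00000239445) had the largest log2 fold change of the set in either direction. It had 0.68, 0.96 and 0.71 FPKM in sh2 replicates 1, 2 and 3, against 3.53, 3.85 and 3.27 FPKM in shNC replicates 1, 2 and 3. The groups did not overlap, and the highest sh2 library was under the lowest shNC library by more than 2 FPKM. Every sh2 library was below 1 FPKM, so ST3GAL6-AS1 met the minimum only through the shNC group, where it was higher. The log2 fold change was -1.35 (SE 0.16, limma adjusted p = 0.00770). It passed under 10 of 11 alternatives, the exception being the fit without shNC replicate 2 (adjusted p = 0.0518).

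Its sense gene ST3GAL6 (ENSG00000064225), which encodes a Golgi sialyltransferase that adds sialic acid to the galactose ends of glycan chains, fell as well. The levels of ST3GAL6 were 14.2, 12.9 and 10.9 FPKM in sh2 replicates 1, 2 and 3, against 24.5, 25.2 and 20.8 FPKM in shNC replicates 1, 2 and 3. Again the groups did not overlap (log2 fold change -0.84, SE 0.14, adjusted p = 0.0170). Of the pairs with a tested sense gene, this was the 1 in which both genes passed the test. On the log2(FPKM + 1) scale the antisense to sense ratio averaged -2.94 in sh2 and -2.43 in shNC libraries. In GENCODE 29, 12.7% of the exonic bases of ST3GAL6-AS1 lie within exons of ST3GAL6 on the other strand, so that a part of the reads can be shared.

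Both start sites lie close together, and the promoter windows of the pair are shown because these genes moved together. Each window runs from 250 bases before the RefSeq start to 50 bases after it (RefSeq, GRCh38.p14), 5′ to 3′ on the strand of the gene. Capitals mark the 149 bases that the window has in common with the reverse complement of the other window. The ST3GAL6-AS1 window is chr3:98732602-98732901, minus strand, and the ST3GAL6 window, the one of several that overlaps it, is chr3:98732451-98732750, plus strand.
ST3GAL6-AS1: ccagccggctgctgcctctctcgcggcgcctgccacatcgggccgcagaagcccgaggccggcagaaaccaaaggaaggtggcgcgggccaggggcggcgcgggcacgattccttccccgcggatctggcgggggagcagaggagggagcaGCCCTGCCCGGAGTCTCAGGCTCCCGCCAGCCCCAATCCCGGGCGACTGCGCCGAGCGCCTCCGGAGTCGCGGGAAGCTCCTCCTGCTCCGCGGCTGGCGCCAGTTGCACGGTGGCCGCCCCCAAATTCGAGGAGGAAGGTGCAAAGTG
ST3GAL6: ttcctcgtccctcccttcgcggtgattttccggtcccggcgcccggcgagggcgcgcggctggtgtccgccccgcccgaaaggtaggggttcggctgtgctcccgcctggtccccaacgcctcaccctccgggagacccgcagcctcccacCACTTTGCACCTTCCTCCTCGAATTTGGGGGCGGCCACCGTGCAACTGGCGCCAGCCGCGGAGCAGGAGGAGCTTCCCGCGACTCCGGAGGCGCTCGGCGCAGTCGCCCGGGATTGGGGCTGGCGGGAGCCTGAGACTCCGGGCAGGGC
The capitals stand at the end of both windows, so each gene starts inside the upstream region of the other. Of 5 motifs searched on both strands, TATAAA and TGANTCA had no match in either window, and CCAAT had 1 match in each. GGGCGG, the GC box, had 2 matches in the ST3GAL6-AS1 and 3 in the ST3GAL6 window, and a shortened kappa-B motif, the fifth, had 4 and 2. Matches of these GC-rich motifs can overlap each other. Of the 35116 windows in the table, 11.5% hold TATAAA, 34.6% CCAAT, 45% GGGCGG, 7.71% TGANTCA and 58.7% the loosened kappa-B motif.

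PXN-AS1 (ENSG00000255857) is antisense to PXN, the gene of paxillin, an adaptor protein of focal adhesions. It fell to 4.05, 4.87 and 2.64 FPKM in sh2 replicates 1, 2 and 3, against 9.22, 7.74 and 8.56 FPKM in shNC replicates 1, 2 and 3 (log2 fold change -0.99, SE 0.19, limma adjusted p = 0.0241). No sh2 library reached a shNC library. PXN itself had 13.6, 13.8 and 10.9 FPKM in sh2 and 13.5, 17.0 and 18.1 FPKM in shNC replicates 1, 2 and 3. These overlap, and PXN was not called (-0.31, SE 0.15, adjusted p = 0.215). Of the exonic bases of PXN-AS1, 38.6% lie within exons of PXN.

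MAGI2-AS3 (ENSG00000234456) fell with a narrow spread. It had 12.8, 12.6 and 11.6 FPKM in sh2 and 20.8, 18.4 and 20.1 FPKM in shNC replicates 1, 2 and 3 (-0.64, SE 0.12, adjusted p = 0.0221). MAGI2, which encodes a membrane-associated scaffold protein, was under the minimum, with 0.61, 0.52 and 0.69 FPKM in sh2 and 0.61, 0.66 and 0.43 FPKM in shNC libraries. The antisense RNA was thus far more abundant than its sense gene in every library, and only 1.48% of its exonic bases overlap MAGI2 exons.

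ADORA2A-AS1 (ENSG00000178803), antisense to an adenosine receptor gene, had 3.13, 3.40 and 3.04 FPKM in sh2 and 4.84, 6.02 and 6.20 FPKM in shNC replicates 1, 2 and 3 (-0.67, SE 0.15, adjusted p = 0.0347). ADORA2A had 3.53, 2.35 and 2.45 FPKM in sh2 and 2.60, 3.65 and 3.16 FPKM in shNC libraries, and these overlap (-0.14, adjusted p = 0.658). Its exons also overlap those of a second gene, UPB1, a pyrimidine breakdown enzyme gene, over 9.57% of their length. UPB1 averaged 3.44 FPKM in sh2 and 5.01 FPKM in shNC libraries and did not pass (-0.44, adjusted p = 0.139).

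ASB16-AS1 (ENSG00000267080) had 1.77, 2.67 and 2.64 FPKM in sh2 and 3.73, 4.75 and 4.83 FPKM in shNC replicates 1, 2 and 3 (-0.70, SE 0.18, adjusted p = 0.0484). All sh2 libraries were lower than all shNC libraries. ASB16, a gene of the ankyrin repeat and SOCS box family, was under the minimum, at 0.29 to 0.47 FPKM in sh2 and 0.22 to 0.45 FPKM in shNC libraries.

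IL10RB-AS1 (ENSG00000223799) had the largest rise of the set. Its levels were 20.5, 28.1 and 34.2 FPKM in sh2 replicates 1, 2 and 3, against 14.1, 11.8 and 14.5 FPKM in shNC replicates 1, 2 and 3 (log2 fold change 0.96, SE 0.19, limma adjusted p = 0.0244). The groups did not overlap, and the sh2 libraries differed more among themselves than the shNC libraries. IL10RB, which encodes a receptor subunit shared by interleukin-10 family cytokines and type III interferons, had 34.1, 25.5 and 21.4 FPKM in sh2 and 31.6, 34.3 and 37.3 FPKM in shNC libraries. It was not called (-0.36, SE 0.17, adjusted p = 0.199). The log2 ratio of antisense to sense averaged 0.03 in sh2 and -1.29 in shNC libraries.

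The exons of IL10RB-AS1 do not overlap those of IL10RB in GENCODE 29, where the starts of the pair lie 98 bases apart and the gene is called IL10RB-DT, for divergent transcript. They do overlap the exons of another gene on the opposite strand, IFNAR2, a subunit of the type I interferon receptor, over 80.9% of their length. IFNAR2 had 42.1, 51.0 and 46.1 FPKM in sh2 and 39.5, 42.8 and 44.5 FPKM in shNC replicates 1, 2 and 3, and these overlap (0.13, SE 0.12, adjusted p = 0.505). IFNAR2, UPB1 and THUMPD3 were looked up because of such overlaps, after the values of their antisense partners were seen.

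The windows of IL10RB-AS1 and IL10RB are shown because the pair shares a promoter region while the log2 fold changes had opposite signs. Here 206 bases, in capitals, are common to both. The IL10RB-AS1 window is chr21:33266211-33266510, minus strand, and the IL10RB window is chr21:33266117-33266416, plus strand.
IL10RB-AS1: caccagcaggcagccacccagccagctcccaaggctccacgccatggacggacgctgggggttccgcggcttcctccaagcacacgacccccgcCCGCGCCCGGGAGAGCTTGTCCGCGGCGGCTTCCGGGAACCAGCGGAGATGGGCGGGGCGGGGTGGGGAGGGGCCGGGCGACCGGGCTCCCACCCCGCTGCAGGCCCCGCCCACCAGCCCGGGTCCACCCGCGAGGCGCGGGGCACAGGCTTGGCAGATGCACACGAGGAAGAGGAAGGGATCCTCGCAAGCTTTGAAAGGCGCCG
IL10RB: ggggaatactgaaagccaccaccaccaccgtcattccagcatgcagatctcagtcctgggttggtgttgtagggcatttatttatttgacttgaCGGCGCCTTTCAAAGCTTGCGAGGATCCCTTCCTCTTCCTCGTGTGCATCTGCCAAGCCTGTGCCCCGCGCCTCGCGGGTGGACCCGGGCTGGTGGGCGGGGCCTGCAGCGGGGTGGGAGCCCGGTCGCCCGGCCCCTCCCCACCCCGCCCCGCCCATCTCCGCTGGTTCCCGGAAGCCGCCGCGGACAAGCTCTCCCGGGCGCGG
TATAAA had no match in these windows, CCAAT had none either, and the AP-1 type motif TGANTCA had none. GGGCGG had 4 matches in the IL10RB-AS1 and 3 in the IL10RB window, and the loosened kappa-B motif had 4 in each.

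MRPL23-AS1 (ENSG00000226416) rose at a low level, with 2.34, 3.30 and 4.20 FPKM in sh2 and 1.59, 0.96 and 1.41 FPKM in shNC replicates 1, 2 and 3 (0.87, SE 0.21, adjusted p = 0.0430). The groups did not overlap. MRPL23, a protein gene of the large subunit of the mitochondrial ribosome, was far more abundant, with 140, 136 and 131 FPKM in sh2 and 214, 159 and 171 FPKM in shNC libraries. Its groups did not overlap either, in the other direction, but it was not called (-0.40, SE 0.13, adjusted p = 0.0865). Exon overlap with MRPL23 covers 4.53% of the antisense gene.

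PAPPA-AS1 (ENSG00000256040) had 3.24, 3.25 and 3.18 FPKM in sh2 and 2.03, 1.52 and 1.43 FPKM in shNC replicates 1, 2 and 3 (0.67, SE 0.16, adjusted p = 0.0410). PAPPA encodes a secreted metalloproteinase that cleaves binding proteins of insulin-like growth factors. It had 1.70, 1.97 and 2.41 FPKM in sh2 and 1.30, 1.20 and 0.77 FPKM in shNC libraries (0.54, SE 0.19, adjusted p = 0.105). Neither gene's groups overlapped. All exonic bases of PAPPA-AS1 (100%) lie within PAPPA exons, so the levels of this pair cannot be told apart by strandless reads.

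**Figure D3:**
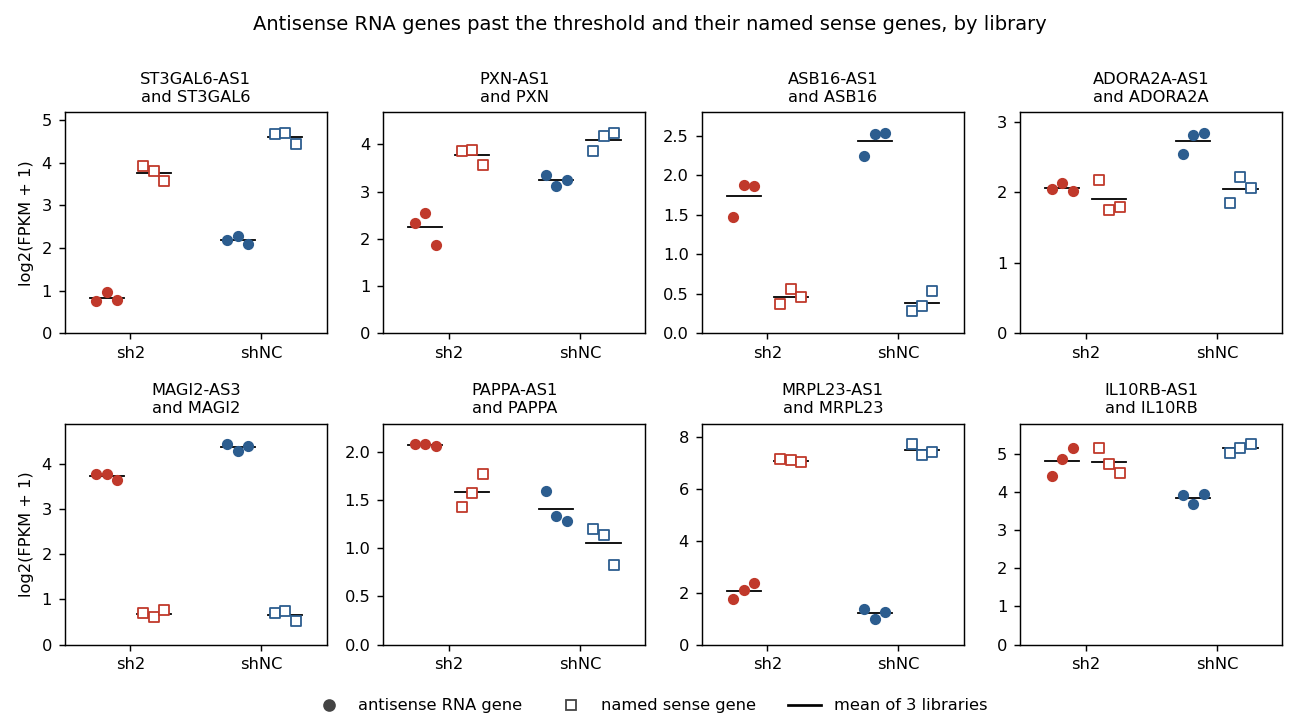
Levels of the 8 antisense RNA genes past the threshold (filled circles) and of their named sense genes (open squares) as log2(FPKM + 1), with sh2 libraries at the left (red) and shNC libraries at the right (blue) of each panel. Lines are means of 3 libraries. The circles of both groups are apart in all 8 panels, while among the squares those of ST3GAL6, MRPL23 and PAPPA are.

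Apart from ST3GAL6-AS1, the 8 antisense genes passed under 3 to 6 of the 11 alternatives. PXN-AS1 passed under 6, IL10RB-AS1 and MAGI2-AS3 under 5, and ADORA2A-AS1, ASB16-AS1, MRPL23-AS1 and PAPPA-AS1 under 3 each, with adjusted p values of up to 0.162. The direction was the same in every alternative for all 8.

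Of the 136 members that did not pass, 122 had a change of less than 1.5-fold on the log2(FPKM + 1) scale, and log2 fold changes ran from -0.72 to 0.92. Of the 136, 28 had groups that did not overlap (14 higher and 14 lower in sh2), or 20.6%, against 27.2% of all genes tested and not called. CD27-AS1, named after a gene of the tumour necrosis factor receptor superfamily, had 2.09, 3.36 and 2.38 FPKM in sh2 and 4.0, 4.19 and 6.83 FPKM in shNC replicates 1, 2 and 3 (-0.72, SE 0.22, adjusted p = 0.0755).

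A large log2 fold change with a wide spread was seen for RAB11B-AS1, at 6.19, 11.4 and 16.9 FPKM in sh2 and 6.58, 5.76 and 3.58 FPKM in shNC libraries (0.92, SE 0.32, adjusted p = 0.105). RAB11B, a GTPase gene of recycling endosomes, averaged 74.7 FPKM in sh2 and 70.9 FPKM in shNC libraries (0.08, limma adjusted p = 0.738). Of the exonic bases of RAB11B-AS1, 26.5% lie within exons of RAB11B. For SAPCD1-AS1 (0.84, SE 0.54) and MFI2-AS1 (0.71, SE 0.42) single libraries stood apart. SAPCD1-AS1 had 5.48, 0.67 and 2.49 FPKM in sh2 and 0.38, 0.28 and 2.76 FPKM in shNC libraries. MFI2-AS1 reached 5.28 FPKM in sh2 replicate 3 and was between 0.26 and 1.79 FPKM in the other 5 libraries.

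Of the 114 sense genes tested, 1 rose and 6 fell, which is 6.14%, against 8.08% of all genes tested. Their median log2 fold change was -0.03. Besides ST3GAL6 these were TM4SF1, higher in sh2, and CEBPA, SERTAD4, RPA3, GMDS and SPAG5, lower in sh2. The antisense partners of these 6 did not pass the test. Without single libraries the number of sense genes called was between 0, without shNC replicate 1 or 2, and 22, without sh2 replicate 1. Of all 13696 genes tested, 149 were called without shNC replicate 1, 54 without shNC replicate 2 and 3342 without sh2 replicate 1. The 7 sense genes passed under 2 to 7 of 11 alternatives, with limma adjusted p values of up to 0.157.

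CEBPA encodes a transcription factor of hepatocyte differentiation. It had 26.8, 19.8 and 12.3 FPKM in sh2 and 42.8, 64.5 and 44.4 FPKM in shNC replicates 1, 2 and 3 (-1.36, SE 0.26, adjusted p = 0.0247). CEBPA-AS1, also known as CEBPA-DT, had 2.27, 3.32 and 3.53 FPKM in sh2 and 4.81, 3.76 and 2.85 FPKM in shNC libraries, with overlapping groups (-0.24, SE 0.21, adjusted p = 0.464). The log2 ratio of antisense to sense averaged -2.30 in sh2 and -3.42 in shNC libraries, a difference of 1.12. Exons of the pair do not overlap, and the starts lie 293 bases apart in GENCODE 29. Their RefSeq windows share 214 bases, in capitals, and are shown because the test was passed by 1 of the 2 genes at this common region. The CEBPA-AS1 window is chr19:33302571-33302870, plus strand, and the CEBPA window is chr19:33302485-33302784, minus strand.
CEBPA-AS1: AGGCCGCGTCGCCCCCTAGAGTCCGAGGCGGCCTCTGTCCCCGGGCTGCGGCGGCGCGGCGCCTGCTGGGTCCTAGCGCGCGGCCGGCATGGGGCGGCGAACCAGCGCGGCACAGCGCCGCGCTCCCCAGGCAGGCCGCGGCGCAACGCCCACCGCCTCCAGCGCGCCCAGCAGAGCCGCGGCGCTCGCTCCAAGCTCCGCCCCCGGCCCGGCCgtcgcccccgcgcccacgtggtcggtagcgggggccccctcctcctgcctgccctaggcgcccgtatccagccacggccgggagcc
CEBPA: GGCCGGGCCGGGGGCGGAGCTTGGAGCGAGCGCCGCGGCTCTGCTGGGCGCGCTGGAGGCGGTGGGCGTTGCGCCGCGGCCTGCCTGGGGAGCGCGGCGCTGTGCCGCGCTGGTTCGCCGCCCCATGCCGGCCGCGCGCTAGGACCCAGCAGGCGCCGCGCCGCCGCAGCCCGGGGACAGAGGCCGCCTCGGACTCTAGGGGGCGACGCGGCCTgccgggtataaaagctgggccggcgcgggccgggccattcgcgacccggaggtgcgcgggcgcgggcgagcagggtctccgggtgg
TATAAA had 1 match, in the lower-case end of the CEBPA window, and none in the CEBPA-AS1 window. GGGCGG had 2 matches in each window, CCAAT and TGANTCA had none, and the loosened kappa-B motif had 2 in the CEBPA-AS1 and 1 in the CEBPA window.

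TM4SF1, a tetraspan membrane protein gene, rose to 534, 452 and 481 FPKM in sh2 replicates 1, 2 and 3, against 270, 273 and 344 FPKM in shNC replicates 1, 2 and 3 (0.73, SE 0.13, adjusted p = 0.0198). TM4SF1-AS1, whose window shares 228 bases with that of TM4SF1, stayed near 1 FPKM. It had 1.26, 0.64 and 2.04 FPKM in sh2 and 0.59, 0.89 and 1.47 FPKM in shNC libraries (0.20, SE 0.27, adjusted p = 0.661).

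Among the sense genes that fell, SERTAD4, which encodes a SERTA domain protein, had a partner with a like fold change. SERTAD4 had 1.83, 3.52 and 2.00 FPKM in sh2 and 5.63, 5.72 and 5.28 FPKM in shNC libraries (-0.96, SE 0.20, adjusted p = 0.0295). SERTAD4-AS1 had 3.33, 3.97 and 5.10 FPKM in sh2 and 8.23, 5.05 and 7.72 FPKM in shNC libraries. The antisense levels overlap through sh2 replicate 3 and shNC replicate 2 (-0.63, SE 0.21, adjusted p = 0.0892), and 17.3% of the antisense exons lie within SERTAD4 exons. RPA3, a subunit gene of the single-strand DNA binding complex of replication, averaged 56.7 ± 8.91 FPKM in sh2 and 94.9 ± 9.14 FPKM in shNC libraries (SD, n = 3 each; -0.74, limma adjusted p = 0.0233). RPA3-AS1 averaged 10.8 ± 0.954 FPKM in sh2 and 14.2 ± 2.70 FPKM in shNC libraries, lower in every sh2 library (-0.36, SE 0.16, adjusted p = 0.169). In GENCODE 29 the ID of RPA3-AS1 is the protein-coding gene UMAD1.

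GMDS encodes an enzyme of GDP-fucose synthesis and SPAG5 a protein of the mitotic spindle. GMDS had 16.3, 15.8 and 14.4 FPKM in sh2 and 22.2, 25.3 and 21.4 FPKM in shNC libraries (-0.54, SE 0.12, adjusted p = 0.0357), while GMDS-AS1, which shares 247 window bases with it, averaged 1.74 FPKM in sh2 and 1.46 FPKM in shNC libraries (0.16, adjusted p = 0.604). SPAG5 had 73.9, 79.2 and 73.1 FPKM in sh2 and 110, 100.4 and 94.0 FPKM in shNC libraries (-0.42, SE 0.11, adjusted p = 0.0488). SPAG5-AS1 averaged 2.38 FPKM in sh2 and 1.95 FPKM in shNC libraries, with overlapping groups (0.22, adjusted p = 0.555).

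The most abundant member was C17orf76-AS1, named LRRC75A-AS1 in GENCODE 29, with 1013, 806 and 827 FPKM in sh2 and 1214, 1036 and 1041 FPKM in shNC replicates 1, 2 and 3. The groups did not overlap, and the test was not passed (-0.32, SE 0.13, adjusted p = 0.143). No other member averaged more than 43.6 FPKM. Without C17orf76-AS1 the members summed to 638, 738 and 753 FPKM in sh2 and 736, 661 and 718 FPKM in shNC libraries, and these sums overlap. FGD5-AS1 came next, at 41.2 ± 3.56 FPKM in sh2 and 46.0 ± 2.15 FPKM in shNC libraries (SD, n = 3 each; -0.16, limma adjusted p = 0.395). Its sense gene FGD5, an exchange factor gene known from endothelial cells, was at most 0.06 FPKM in any library.

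SETD5-AS1 averaged 31.5 FPKM in sh2 and 31.0 FPKM in shNC libraries (0.02, adjusted p = 0.939). In GENCODE 29 its ID is named THUMPD3-AS1, and 10.5% of its exonic bases overlap THUMPD3 exons, on the opposite strand, and none overlap SETD5, a chromatin regulator gene at 36.4 FPKM in sh2 and 31.0 FPKM in shNC libraries. THUMPD3 had 40.0, 31.6 and 31.9 FPKM in sh2 and 44.6, 51.2 and 49.1 FPKM in shNC replicates 1, 2 and 3, lower in every sh2 library but not past the threshold (-0.48, SE 0.13, adjusted p = 0.0555). MMP24-AS1 averaged 26.0 FPKM in sh2 and 18.7 FPKM in shNC libraries (0.46, adjusted p = 0.108). ARHGAP5-AS1, named after a GTPase activating protein gene, averaged 17.8 FPKM in sh2 and 22.4 FPKM in shNC libraries (-0.31, adjusted p = 0.159). THAP9-AS1 averaged 16.0 FPKM in sh2 and 13.2 FPKM in shNC libraries, higher in every sh2 library (0.26, adjusted p = 0.210). NUTM2A-AS1, at 20.04 FPKM in sh2 and 22.2 FPKM in shNC libraries, and RAB30-AS1, at 13.7 FPKM in sh2 and 17.1 FPKM in shNC libraries, had adjusted p values of 0.478 and 0.426. Like MAGI2-AS3, the genes MMP24-AS1, NUTM2A-AS1, RAB30-AS1 and THAP9-AS1 were each more abundant than their sense genes, which averaged at most 2.34 FPKM in either group.

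The pairs differ in how they lie to each other. In GENCODE 29 the exons of antisense and sense gene overlap for 93 members, the gene bodies overlap without shared exonic bases for 12, and 27 start head to head with no overlap. The other 12 have no sense row (8) or an ID outside that release (4). Of the 140 IDs found, 25 bear another symbol there, often one ending in -DT. Across the 117 pairs with a tested sense gene, the log2 fold changes of antisense and sense gene had a Pearson r of 0.24 and a Spearman coefficient of 0.19. All pairs share the same 6 libraries and many share reads, so these values are descriptions. Both genes were higher in sh2 in 34 pairs and both lower in 34, while in 31 the antisense gene was higher and the sense gene lower, and in 18 the reverse.

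By layout, r was 0.36 over the 78 pairs with overlapping exons, -0.10 over the 27 head-to-head pairs and -0.17 over the 9 pairs whose gene bodies alone overlap. In 8 pairs at least 50% of the antisense exonic bases lie within exons of the sense gene, a limit set after the values were seen, and there r was 0.92 (Spearman coefficient 0.88). PITPNA-AS1, picked after its values were seen, was 1 of these, with 9.77, 11.5 and 7.90 FPKM in sh2 and 13.7, 16.4 and 14.5 FPKM in shNC replicates 1, 2 and 3 (-0.58, adjusted p = 0.0565). PITPNA, a phosphatidylinositol transfer protein gene, had 8.25, 10.8 and 10.1 FPKM in sh2 and 11.2, 13.5 and 13.1 FPKM in shNC libraries (-0.35, adjusted p = 0.152). Both genes were lower in every sh2 library than in any shNC library. Differences in r between layouts were not tested.

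RefSeq promoter windows were found for 117 of the 144 antisense genes, and for both genes of 98 pairs. In 46 of these pairs the windows share an unbroken run of at least 20 bases. Over the 43 with a tested sense gene r was 0.25, and 26 had log2 fold changes of the same sign.

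**Figure D4:**
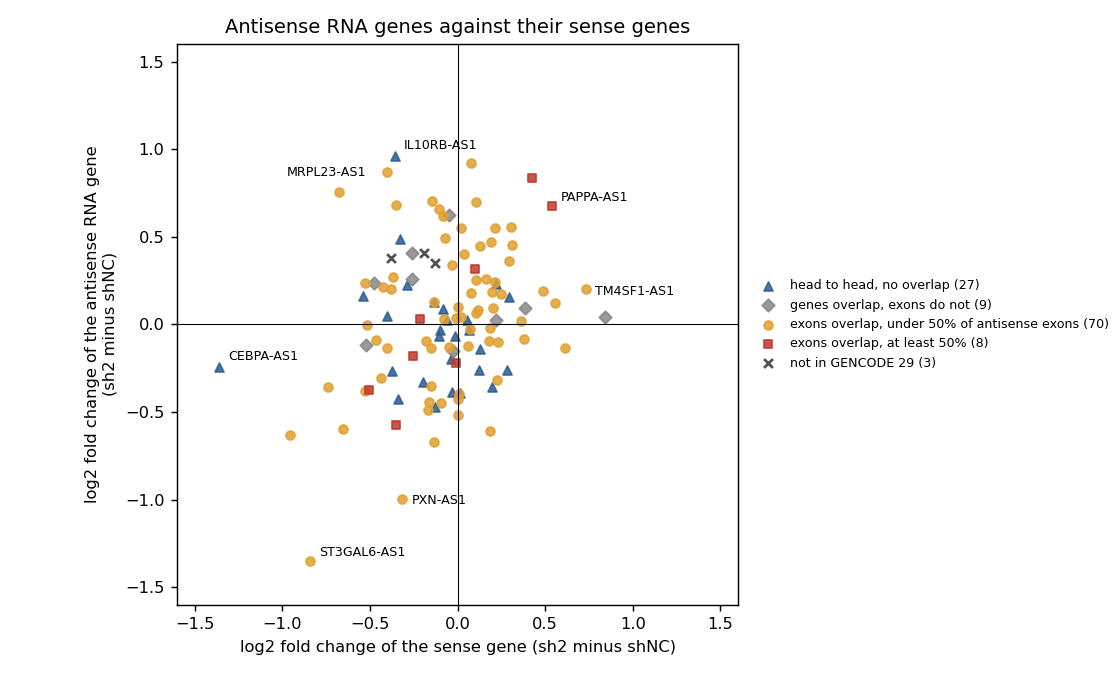
Log2 fold change, sh2 minus shNC, of the antisense RNA gene (vertical) against that of its sense gene (horizontal) for the 117 pairs with a tested sense gene. Symbols give the layout of the pair in GENCODE 29 and the number of pairs. ST3GAL6-AS1 stands alone at the lower left, and IL10RB-AS1 and MRPL23-AS1 lie above 0 with sense genes below 0.

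Some members are antisense to genes of the pathway and cell states that the study's title names or to liver regulators, and were picked for that after the values were seen. EGFR-AS1, antisense to the receptor gene EGFR, had 0.95, 1.43 and 1.40 FPKM in sh2 and 0.89, 1.12 and 1.34 FPKM in shNC replicates 1, 2 and 3 (0.09, SE 0.19, adjusted p = 0.782), and EGFR averaged 27.6 FPKM in sh2 and 23.9 FPKM in shNC libraries. VIM-AS1, antisense to the vimentin gene, had 4.68, 4.52 and 5.47 FPKM in sh2 and 3.74, 3.33 and 2.11 FPKM in shNC libraries. Its groups did not overlap, and it did not pass (0.56, SE 0.19, limma adjusted p = 0.0989). Of the exonic bases of VIM-AS1, 32.2% lie within exons of VIM, so that a part of the reads can be shared. ZEB1-AS1, beside a repressor gene of epithelial genes, averaged 2.03 FPKM in sh2 and 1.16 FPKM in shNC libraries (0.47, adjusted p = 0.195). Among liver regulators, PROX1-AS1 had 3.02, 2.05 and 3.01 FPKM in sh2 and 1.64, 1.39 and 1.16 FPKM in shNC libraries, apart but not past the threshold (0.62, SE 0.18, adjusted p = 0.0708). GATA6-AS1 had overlapping groups (0.02, SE 0.26, adjusted p = 0.967).

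Other classes of named non-coding RNA gene were set beside the antisense genes. Of 185 genes named LINC and a number, 59 were tested, and 2 rose and 1 fell, or 5.08%, against 8.08% of all genes tested. The median log2 fold change of the 59 was 0.12, against -0.03 for all genes tested. LINC00958 fell, with a mean of 6.68 FPKM in sh2 and 16.1 FPKM in shNC libraries (-1.15, SE 0.16, adjusted p = 0.0107). LINC00312 averaged 3.85 FPKM in sh2 and 1.75 FPKM in shNC libraries (0.82, adjusted p = 0.0241), and LINC00894 3.25 FPKM in sh2 and 1.22 FPKM in shNC libraries (0.89, adjusted p = 0.0491), and both rose. Of 26 intronic or overlapping transcripts with names ending in -IT or -OT, 4 were tested and 1 rose. This was ANKRD10-IT1, with a mean of 1.92 FPKM in sh2 and 0.62 FPKM in shNC libraries (0.86, SE 0.19, limma adjusted p = 0.0347). ANKRD10-IT1 reached 1 FPKM in sh2 libraries alone, so it met the minimum only through the group where it was higher.

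The nuclear exosome degrades many antisense and upstream RNAs. Of 22 exosome subunits and adaptors, all tested, limma called 0, with 8 at an unadjusted p below 0.05 and a median log2 fold change of -0.22. DIS3L (-0.43, limma adjusted p = 0.0647) and EXOSC7 (-0.43, limma adjusted p = 0.0728) had the smallest p of those lower in sh2. DIS3L belongs to the cytoplasmic form of the exosome. RBM7, an adaptor subunit gene, was at 18.0 FPKM in sh2 and 12.3 FPKM in shNC libraries (0.53, limma adjusted p = 0.104). Of 21 enzymes and sensors of double-stranded RNA, 16 were tested and limma called 0, with 4 at an unadjusted p below 0.05 and a median of -0.01. ILF2, a double-stranded RNA binding partner gene, averaged 192 FPKM in sh2 and 281 FPKM in shNC libraries (-0.56, SE 0.14, adjusted p = 0.0504), and DGCR8, of the microRNA processing complex, 17.0 FPKM in sh2 and 11.9 FPKM in shNC libraries (0.47, adjusted p = 0.0703). Across all genes tested, 8.08% were called and 29.3% had an unadjusted p below 0.05, and 24.3% of the 144 antisense RNA genes had such a p.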

How the data were processed

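Libraries of total RNA were prepared with a TruSeq RNA kit, per the labels' protocols. Group and replicate number come from the sample titles. The authors deposited 1 table of normalized values, read here as FPKM. No unit is named in it, and TPM values with some genes left out would look the same. Column sums ran from 851418 to 975501. Read totals are unknown, so no counting intervals are given. Per the submitters' processing notes RSEM 1.1.17 and Bowtie2 2.2.6 were among the tools, besides Trimmomatic 0.36, bcl2fastq 2.19.0, DESeq2 1.16.1 and edgeR 3.18.1, and the genome build named is a mouse one, although the gene IDs are human. No coordinates are therefore given for the table's genes; layouts come from GENCODE 29 and promoter windows from RefSeq (GRCh38.p14), and the authors' annotation may differ.

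The minimum for a test was 1 FPKM, reached in 3 libraries or more. Genes past it were tested with limma 3.58.1 in R 4.3.3 (pseudocount 1, trend and robust moderation, two-sided, no block). Members and lists were chosen with earlier results of these data known. Named members were those called, the 10 most abundant, the 6 largest rises and falls, and those with a called sense gene; others are said to be picked after their values were seen. Some results under this rule are not reported here. From the lists, called genes or up to 4 with the smallest p were eligible. Pair ratios are described and were not tested. Alternatives were a pseudocount of 0.1, no filter, quantile normalization, rescaling without mitochondrially encoded genes, the replicate block and leaving out each library.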

Additional observations from a re-analysis of the deposited data

How the results depend on the processing

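The lowest-level members carry the widest errors: the median SE was 0.22 for the 51 members below 2 FPKM and 0.16 for the 19 at 10 FPKM or more. The number of calls moved with single libraries. Leaving out each library in turn gave 0 to 17 antisense genes (8 with all libraries), 0 to 22 sense genes (7), 0 to 16 LINC genes (3), 0 to 1 -IT or -OT genes (1), 0 to 7 exosome genes (0), 0 to 5 double-stranded RNA genes (0) and 54 to 3342 of all genes (1107). The lowest count of antisense genes came without shNC replicate 2, the highest without sh2 replicate 1. With no filter on low values, 1 antisense gene, 1 sense gene, 1 LINC gene, 0 -IT or -OT genes and 221 of all genes passed. Quantile normalization left 0 -IT or -OT genes and 6 antisense genes, rescaling without mitochondrially encoded genes 6 and a pseudocount of 0.1 left 7, all among the 8. The median log2 fold change of the 144 was 0.13 after rescaling (0.06 for all genes tested), and it was -0.01 after quantile normalization and without sh2 replicate 2. SETD5-AS1 turned to -0.10 without shNC replicate 3 and to -0.08 without sh2 replicate 2, with a range of -0.10 to 0.13 over the left-out libraries. TM4SF1-AS1 turned to -0.019 without sh2 replicate 3, with a range of -0.019 to 0.43. The other 46 of 48 named genes kept their sign in all 11 alternatives. The cause of these shifts was not tested.

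With the replicate number as a block, 6 antisense genes passed, 5 of them among the 8, as did 0 -IT or -OT genes, 1 double-stranded RNA gene and 861 of all genes. Libraries with the same number correlated by 0.05, 0.10 and 0.14 in their deviations from the group means. For sh2 replicates 2 and 3 these were the highest values, while sh2 replicate 1 correlated best with shNC replicate 2 (0.09). This does not settle if the numbers mark pairs, and the main fit has no block.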

Other observations

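The 279 antisense symbols below the minimum were not listed at 0 in all libraries in any case, and 56 of them reached 1 FPKM in at least 1 library. Their median level was 0.19 FPKM. Groups did not overlap for 24 that were higher and 19 that were lower in sh2, or 15.4% of the 279, against 13.8% of all 9648 genes below the minimum. These counts are a description without a test.

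Of the 140 members with an ID in GENCODE 29, 93 are of the antisense biotype there, 20 are lincRNAs, 19 processed transcripts and 4 protein-coding genes. The 4 are MMP24-AS1, NCBP2-AS2, RPA3-AS1 and TOPORS-AS1. Exons of 112 of the 140 overlap exons of some other gene, sense partner or not, over a median of 9.69% of the antisense exonic bases across all 140.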
